A study of Mus musculus with 4 samples.

Results

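Integrin transcripts were measured by RNA-seq in mouse acute myeloid leukemia cells that carry NRAS and AML1-ETO9a, a truncated fusion oncoprotein that drives this leukemia in mice. A set of 10 leukocyte integrin subunit genes was followed: Itgal, Itgam, Itgax, Itgb2, Itga4, Itga5, Itga6, Itgb1, Itgb7 and Itgb3. They were chosen by gene symbol from the 24497 mouse gene entries of the table, and all 10 were found. The leukemias had been established from bone marrow hematopoietic stem cells of Tet2-/- mice, whose Tet2 gene lacks exons 8 to 10, or of wild-type (WT) mice. Each group had 2 libraries (n = 2), labelled Tet2 KO or WT, with no drug treatment named. Both groups carried both oncogenes and grew in the same medium with SCF, IL-3, IL-6, G418 and puromycin. Animal age, strain and the number of mice or clones behind each line are not given in the sources used here, so the replicates may be technical repeats of 1 line.

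Integrins are cell-surface adhesion receptors made of an alpha and a beta subunit, and neither subunit reaches the surface in quantity without its partner. On leukocytes, Itgb2 pairs with Itgal, Itgam or Itgax to bind ICAMs, complement fragments and fibrinogen. Itgb1 pairs with Itga4, Itga5 or Itga6 to bind VCAM-1, fibronectin or laminin and to hold stem and progenitor cells in the marrow. Itga4 can instead pair with Itgb7, which gives the receptor for the gut addressin MAdCAM-1.

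Tet2, which encodes the dioxygenase that oxidises 5-methylcytosine, had 53.5 and 52.8 TPM in the libraries labelled knockout and 35.1 and 40.0 TPM in WT. TPM are transcript abundances per length, scaled to 1000000 per library. Tet2 was higher in the knockout-labelled libraries (0.50 on the log2 scale, SE 0.067, adjusted p = 0.00536 from limma). A value for the whole gene does not check a deletion of a few exons, so every direction below goes by the labels. Between 11630 and 11731 genes reached 1 TPM per library. ERCC spike-ins took 3.41% and 3.39% of the TPM in the knockout-labelled libraries, and 2.98% and 3.30% in WT. The 2 WT libraries thus differed in spike-in share, and spike-in scaling carries that difference into every gene. Read depth is unknown, because TPM keep none.

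Of the 10 subunits, 4 rose in the knockout-labelled cells (Itgb7, Itga4, Itgal and Itga6), 4 fell (Itgax, Itgb2, Itgam and Itgb3), and Itgb1 and Itga5 did not pass the test. Itgb7 was 2.07-fold higher and Itgax 2.71-fold lower in the knockout-labelled libraries than in WT. A gene was called at an adjusted p under 0.05 from limma on log2(TPM + 1). By that rule 30.5% of the 11837 tested genes were called, 18.9% higher and 11.6% lower. Over all tested genes 2237 rose and 1369 fell, against 637 and 602 without replicate 1 of the knockout-labelled libraries and 628 and 660 without their replicate 2. Higher calls were 62.0% of all calls as deposited, 48.6% with trimmed-mean scaling, 42.3% after rescaling without granulocyte genes and 29.9% with spike-in scaling. All 10 subunits passed the filter of 1 TPM in at least 2 libraries, and none fell under 20.9 TPM in any library. The median of the 10 log2 changes was 0.04, the same to this precision as the median of all tested genes, 0.04. The median size of change, whatever its sign, was 0.35 for the 10 subunits and 0.14 for all tested genes. The groups did not overlap for 9 of the 10 subunits, 5 higher and 4 lower, which was also so for 68.6% of all tested genes, 42.2% higher and 26.5% lower.

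**Figure D1:**
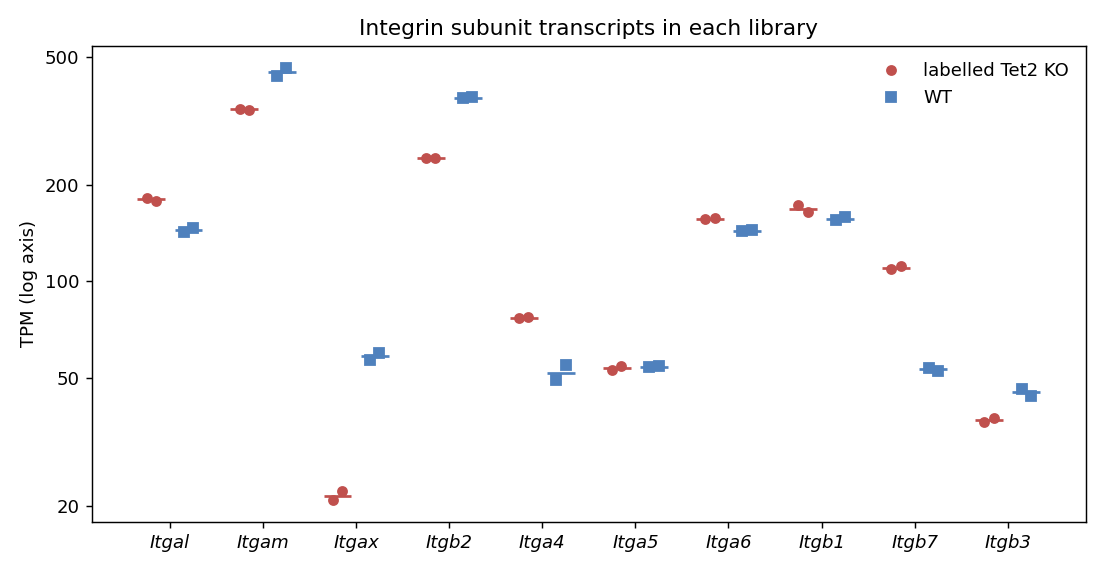
TPM of the 10 integrin subunits on a log axis, with 1 point per library (circles labelled Tet2 KO, squares WT) and a line at each group mean of 2 libraries. The groups are separate for 9 subunits and overlap for Itga5, at 52.8 to 54.4 TPM in the knockout-labelled libraries and 54.1 to 54.5 TPM in WT.

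The beta2 integrins changed in both directions. Itgb2, the shared beta chain (CD18), had 242 and 241 TPM in the knockout-labelled libraries and 371 and 374 TPM in WT. Both knockout-labelled values lay below both WT values, and the fall was -0.62 on the log2 scale (SE 0.029, adjusted p = 0.000241). Itgam, the alpha chain of Mac-1 (CD11b) on neutrophils and monocytes, had 345 and 341 TPM in the knockout-labelled libraries and 436 and 463 TPM in WT. It fell by 0.39 on the log2 scale (SE 0.039, adjusted p = 0.00227), again with no overlap. Itgax, the alpha chain known as CD11c on dendritic cells and macrophages, had 20.9 and 22.2 TPM in the knockout-labelled libraries and 56.8 and 60.0 TPM in WT. Its fall was the largest of the 10, at -1.40 (SE 0.053, adjusted p = 0.000134). Itgal, the alpha chain of LFA-1 (CD11a), went the other way. It had 182 and 178 TPM in the knockout-labelled libraries and 143 and 147 TPM in WT, a rise of 0.31 (SE 0.034, adjusted p = 0.00275). With values scaled to the spike-ins, the Itgal rise was 0.20 and did not pass (adjusted p = 0.101). In bulk RNA, fewer cells that express a gene and less RNA per cell cannot be told apart.

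Together, Itgal, Itgam and Itgax summed to 547 and 542 TPM in the knockout-labelled libraries and 635 and 669 TPM in WT, and so exceeded Itgb2 in every library. Within that sum, Itgal held 33.2% and 32.9% in the knockout-labelled libraries, against 22.5% and 21.9% in WT. Itgam held 63.0% and 63.0% in the knockout-labelled libraries, against 68.6% and 69.1% in WT. Itgax held 3.81% and 4.10% in the knockout-labelled libraries, against 8.93% and 8.96% in WT. Among the 3 alpha chains the balance thus moved towards Itgal, with Itgam the most abundant in both groups. Itgad, the alpha chain that also pairs with Itgb2, stayed at or below 0.15 TPM in all 4 libraries.

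The 3 alpha chains lie on 1 chromosome, in GRCm38 coordinates. Itgal lies on chromosome 7 from 127296260 to 127335138, Itgam from 128062640 to 128118491 and Itgax from 128129547 to 128150657, all on the plus strand. Itgam and Itgax, which both fell, are 11.1 kb apart with no protein-coding gene between them. Itgad follows Itgax after 3.72 kb. Itgal, which rose, lies 728 kb from Itgam, and of the 29 tested protein-coding genes between the pair 1 rose and 2 fell. Over all tested genes, 18.9% were called higher and 11.6% lower. Itgb2 is on chromosome 10 from 77530252 to 77565708.

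Start-site sequences are shown for the subunits that fell from this shared locus and for the pair that rose, as the 250 bases before the RefSeq start (GRCm38.p6, read 5′ to 3′ on the strand of the gene). Itgam covers chr7:128062390-128062639 and Itgax chr7:128129300-128129549, both on the plus strand. Itga4 covers chr2:79255176-79255425 on the plus strand, and Itgb7 chr15:102231936-102232185 on the minus strand. Capitals mark matches on either strand to GAGGAA, a core recognised by the myeloid factor PU.1, or to TGTGGT, a core recognised by RUNX factors, whose DNA-binding domain the AML1-ETO9a fusion keeps.
Itgam: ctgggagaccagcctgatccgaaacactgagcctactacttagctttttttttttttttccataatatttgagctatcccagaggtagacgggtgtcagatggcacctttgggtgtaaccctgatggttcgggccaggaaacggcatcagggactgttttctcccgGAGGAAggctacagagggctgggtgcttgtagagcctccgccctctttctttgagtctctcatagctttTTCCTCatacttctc
Itgax: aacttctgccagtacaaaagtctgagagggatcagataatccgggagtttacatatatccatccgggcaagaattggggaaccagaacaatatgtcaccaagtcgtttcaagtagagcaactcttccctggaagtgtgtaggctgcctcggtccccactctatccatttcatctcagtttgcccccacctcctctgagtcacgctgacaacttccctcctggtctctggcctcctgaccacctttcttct
Itga4: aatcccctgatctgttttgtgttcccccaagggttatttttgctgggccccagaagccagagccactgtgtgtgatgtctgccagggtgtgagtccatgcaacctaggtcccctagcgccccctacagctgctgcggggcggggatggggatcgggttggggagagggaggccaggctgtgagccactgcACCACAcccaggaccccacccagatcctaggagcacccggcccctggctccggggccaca
Itgb7: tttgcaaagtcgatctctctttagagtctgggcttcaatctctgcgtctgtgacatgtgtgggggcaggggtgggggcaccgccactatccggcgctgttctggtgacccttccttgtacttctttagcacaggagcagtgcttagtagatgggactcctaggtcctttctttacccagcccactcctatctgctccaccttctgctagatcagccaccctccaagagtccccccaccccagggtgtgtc
The Itgam window holds GAGGAA at 84 to 79 bases before the start and its reverse complement at 15 to 10 bases. The Itga4 window holds the reverse complement of TGTGGT at 60 to 55 bases. Neither sequence occurs in the Itgax or Itgb7 window. Of 32851 windows of this length, 23.3% hold GAGGAA and 14% hold TGTGGT, on either strand. CpG pairs number 6 in the Itgam and Itga4 windows and 5 in the Itgax and Itgb7 windows, beside a median of 6 for all windows. RefSeq windows were matched for 6 of the 10 subunits. Those of the uncalled Itgb1 and Itga5, not printed here, also hold the PU.1 core. Itgb1 has GAGGAA at 9 to 4 bases before the start, and Itga5 its reverse complement at 127 to 122 bases. CpG pairs number 21 in the Itgb1 window and 11 in the Itga5 window. A match is a description of the letters and was not tested for binding.

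Itgb7, the beta chain that pairs with Itga4 or Itgae, rose the most of the 10. It had 109 and 112 TPM in the knockout-labelled libraries and 53.7 and 52.7 TPM in WT, a change of 1.04 (SE 0.036, adjusted p = 0.000115). Itga4, the alpha chain of VLA-4 (CD49d), had 76.6 and 77.5 TPM in the knockout-labelled libraries and 49.3 and 54.7 TPM in WT. It rose by 0.56 (SE 0.057, adjusted p = 0.00228). Neither pair of groups overlapped. Itgae, the other alpha partner of Itgb7 (CD103), stayed at or below 0.30 TPM in all 4 libraries, so Itga4 was the abundant partner of Itgb7 in both groups. Itga4 lies on chromosome 2 from 79255426 to 79333123 on the plus strand. Itgb7 lies on chromosome 15 from 102215995 to 102231944 on the minus strand, 1.11 Mb from Itga5. Of the 22 tested protein-coding genes between them 8 rose and 3 fell, beside 18.9% and 11.6% of all tested genes. Whether position has a part in these changes was not tested.

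Itgb1, the beta chain shared by most matrix receptors (CD29), had 173 and 164 TPM in the knockout-labelled libraries and 155 and 158 TPM in WT. The knockout-labelled values were the higher ones, but the difference of 0.10 did not pass (adjusted p = 0.105, unadjusted 95% interval 0.0043 to 0.20) and was -0.012 with spike-in scaling. Itga6, the laminin receptor chain (CD49f), had 156 and 157 TPM in the knockout-labelled libraries and 143 and 144 TPM in WT. Its change of 0.13 passed narrowly (SE 0.031, adjusted p = 0.0321) and was lost under 11 of 19 other settings. These include the fits without knockout-labelled library 1 (adjusted p = 0.169), knockout-labelled library 2 (adjusted p = 0.192) or WT library 1 (adjusted p = 0.0675), and the fit with the replicate block (adjusted p = 0.0655). Scaled to the spike-ins, its change was 0.011 (adjusted p = 0.940). Itga5, the fibronectin receptor chain (CD49e), had 52.8 and 54.4 TPM in the knockout-labelled libraries and 54.1 and 54.5 TPM in WT. The groups overlapped, and the difference was -0.02 (95% interval -0.11 to 0.08, adjusted p = 0.755). Itgb1 lies on chromosome 8 from 128685654 to 128733200, Itga6 on chromosome 2 from 71745616 to 71858416, both on the plus strand, and Itga5 on chromosome 15 from 103344286 to 103366763 on the minus strand.

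Among these 3 alpha chains of Itgb1, Itga4 held 26.8% and 26.8% of the summed TPM in the knockout-labelled libraries, against 19.99% and 21.61% in WT. Itga6 was the most abundant in every library, with 54.7% and 54.4% in the knockout-labelled libraries, against 58.1% and 56.9% in WT. Itga4 exceeded Itga5 by 1.45 and 1.42 times in the knockout-labelled libraries, against 0.911 and 1.004 times in WT. Itga4 thus led Itga5 in the knockout-labelled libraries, and the pair was close to level in WT. Among the beta chains Itgb1, Itgb2, Itgb3 and Itgb7, Itgb7 held 19.5% and 20.2% in the knockout-labelled libraries, against 8.57% and 8.38% in WT. Itgb2 was the most abundant of the 4 in every library.

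Itgb3, the beta chain of the platelet fibrinogen receptor and of the vitronectin receptor (CD61), had 36.5 and 37.6 TPM in the knockout-labelled libraries and 46.4 and 43.8 TPM in WT. It fell by 0.28 (SE 0.047, adjusted p = 0.0105), with no overlap. Its gene lies on chromosome 11 from 104608000 to 104670476, on the plus strand. The call was lost when knockout-labelled library 1 (adjusted p = 0.0837) or library 2 (adjusted p = 0.0617) was left out.

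**Figure D2:**
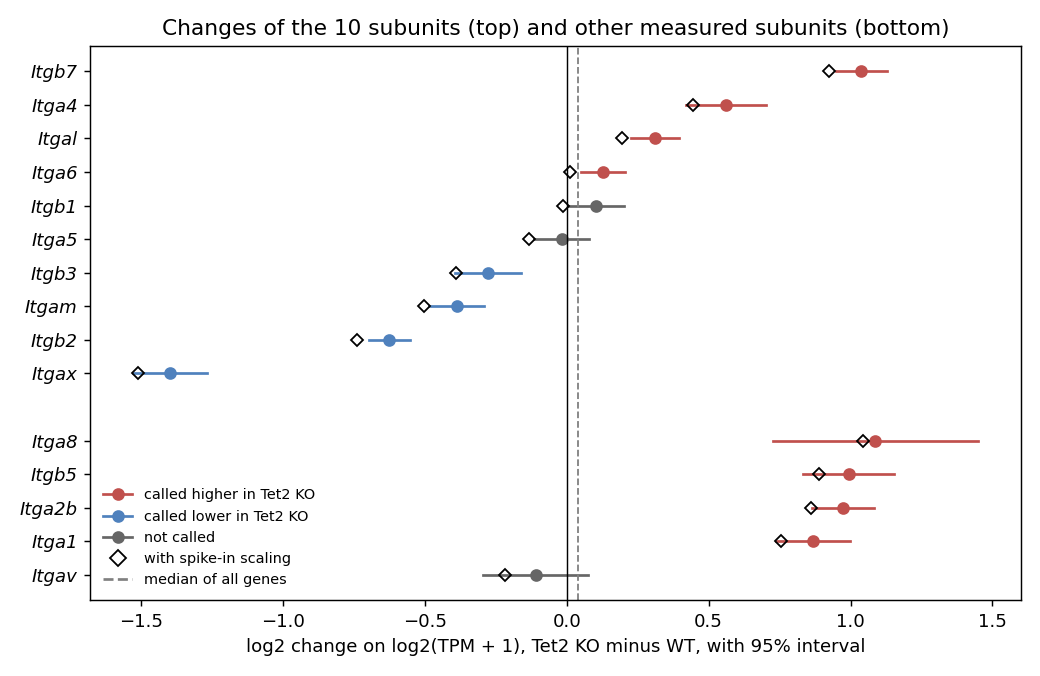
Changes on the log2(TPM + 1) scale, knockout-labelled minus WT, with 95% intervals from limma; circles are values as deposited, diamonds the values scaled to spike-ins, and the dashed line is the median of all tested genes. The 10 subunits run from 1.04 for Itgb7 at the top to -1.40 for Itgax, above the other 5 tested subunits.

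Of 16 other integrin subunits, 5 passed the filter on low values. Among these Itga2b, Itgb5, Itga1 and Itga8 rose and Itgav did not pass the test, where 18.9% of all tested genes rose and 11.6% fell. Itga2b, the platelet partner of Itgb3 (CD41), which also marks early hematopoietic progenitors, had 41.2 and 40.4 TPM in the knockout-labelled libraries and 20.01 and 20.56 TPM in WT (0.97, SE 0.043, adjusted p = 0.000214). Itgb5, a partner of Itgav, had 14.7 and 15.7 TPM in the knockout-labelled libraries and 7.03 and 7.23 TPM in WT (0.99, SE 0.064, adjusted p = 0.000570). Itga1, a collagen receptor chain, had 28.6 and 27.8 TPM in the knockout-labelled libraries and 14.6 and 15.4 TPM in WT (0.87, SE 0.052, adjusted p = 0.000477). Itga8 passed the filter through the knockout-labelled libraries alone, at 1.61 and 1.45 TPM, and had 0.19 TPM in each WT library (1.09, SE 0.14, adjusted p = 0.00514). Its call is therefore not independent of the filter. Itgav had 15.0 and 16.2 TPM in the knockout-labelled libraries and 15.9 and 17.9 TPM in WT, with overlapping groups (-0.11, adjusted p = 0.314).

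Itgb2l, a paralog of Itgb2, was looked at after its values were seen. It had 21.98 and 23.51 TPM in the knockout-labelled libraries and 51.1 and 53.4 TPM in WT (-1.17, SE 0.052, adjusted p = 0.000211). How reads shared by both paralogs were assigned could shift their values against each other. Itgb2 and Itgb2l summed to 264 and 265 TPM in the knockout-labelled libraries and 423 and 427 TPM in WT, so the sum was also lower in the knockout-labelled group.

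The order of levels differed between the groups below the leading pair. In the knockout-labelled libraries the order by mean TPM was Itgam, Itgb2, Itgal, Itgb1, Itga6, Itgb7, Itga4, Itga5, Itgb3 and Itgax, and no neighbours in it had overlapping libraries. In WT it was Itgam, Itgb2, Itgb1, Itgal, Itga6, Itgax, Itga5, Itgb7, Itga4 and Itgb3. There Itgal and Itga6 overlapped, and Itga4 overlapped both Itgb7 and Itga5, so these are not ordered beyond their spread. Itgax was the 10th of the 10 in the knockout-labelled libraries and the 6th in WT. Itgb7 was the 6th in the knockout-labelled libraries, above Itga4 and Itga5, and in WT it lay below Itga5 and was not separated from Itga4. Itgam and Itgb2 were abundant transcripts, with means over the 4 libraries above those of 97.3% and 96.6% of tested genes.

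All 26 integrin subunits summed to 1497 and 1490 TPM in the knockout-labelled libraries and 1568 and 1616 TPM in WT. Itgb2 with its alpha chains Itgal, Itgam, Itgax and Itgad made up 52.7% and 52.6% of that sum in the knockout-labelled libraries, against 64.2% and 64.6% in WT. Itgb1, Itga4, Itga5 and Itga6 made up 30.6% and 30.4% in the knockout-labelled libraries, against 25.6% and 25.5% in WT. Itgb7 alone made up 7.28% and 7.50% in the knockout-labelled libraries, against 3.43% and 3.26% in WT. The integrin mixture of the knockout-labelled cells thus held less of the beta2 group and more of Itgb7 and of the beta1 group. These are shares of 1 sum, so a smaller beta2 share leaves larger shares for the rest. The beta1 group itself had 459 and 453 TPM in the knockout-labelled libraries and 401 and 412 TPM in WT. Of its members, Itgb1 and Itga5 were not called, and the Itga6 call was lost under 11 of 19 other settings. The 16 other subunits were left with the remainder, since the 10 subunits held 93.1% and 93.0% in the knockout-labelled libraries, against 96.2% and 96.0% in WT.

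**Figure D3:**
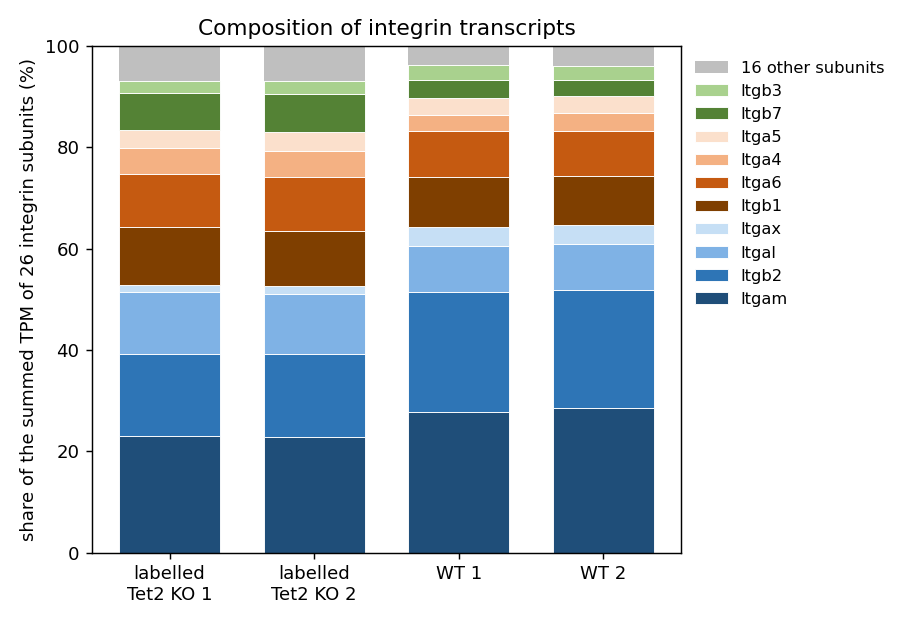
Share of the summed TPM of 26 integrin subunits in each of the 4 libraries, in percent. The blue segments, Itgb2 with Itgal, Itgam and Itgax, reach about 52.7% in the knockout-labelled libraries and 64.2% or more in WT.

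Ratios between subunits within a library do not depend on a common scaling factor of that library. They can move under a correction that differs between genes, such as removal of a GC and length trend. For 14 pairs the log2 ratio was compared between groups, and 13 did not overlap. The pairs share subunits, so they are not 14 separate observations, and 68.6% of all tested single genes also did not overlap. The exact two-sided permutation p was 0.333 for each of the 13, the smallest that 2 against 2 libraries can give, and 0.359 adjusted over the 14 pairs, so no ratio could pass the threshold in this design. Itgb7 stood at 0.630 and 0.682 of the Itgb1 level in the knockout-labelled libraries, against 0.347 and 0.333 in WT. Itgb7 was 1.42 and 1.44 times the Itga4 level in the knockout-labelled libraries, against 1.09 and 0.963 in WT. Itgb7 transcripts were thus in excess of Itga4 in the knockout-labelled libraries and near parity with it in WT.

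Itgal reached 0.752 and 0.739 of the Itgb2 level in the knockout-labelled libraries, against 0.385 and 0.392 in WT. Itgam reached 1.43 and 1.41 times the Itgb2 level in the knockout-labelled libraries, against 1.17 and 1.24 in WT. Itgax stood at 0.0605 and 0.0651 of the Itgam level in the knockout-labelled libraries, against 0.130 and 0.130 in WT. Although all of Itgb2, Itgam and Itgax fell, they therefore fell by unequal amounts, with Itgam the least.

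The ratio of Itgb2 to Itgb1 was 1.40 and 1.47 in the knockout-labelled libraries, against 2.40 and 2.36 in WT. Itgb3 stood at 0.887 and 0.930 of Itga2b in the knockout-labelled libraries, against 2.32 and 2.13 in WT, the widest shift of the 14 (log2 difference -1.29). The subunit in excess of this pair was thus Itga2b in the knockout-labelled libraries and Itgb3 in WT. Itga6 relative to Itgb1 was the pair that overlapped, at 0.902 and 0.961 in the knockout-labelled libraries and 0.923 and 0.910 in WT (exact permutation p = 1.000).

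**Figure D4:**
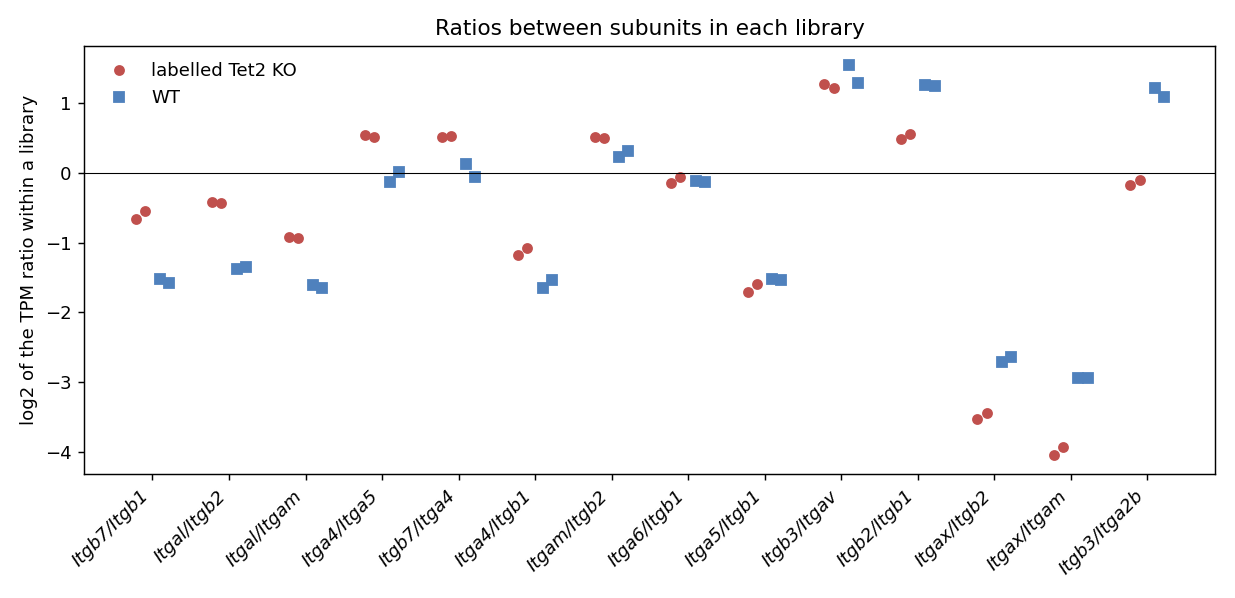
Log2 of the TPM ratio between subunits within each library, for 14 pairs ordered by the difference between groups; circles are the libraries labelled Tet2 KO and squares WT. Itgb7/Itgb1 is at the left, with log2 difference 0.95, and Itgb3/Itga2b at the right, with -1.29.

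The genes whose pattern over the 4 libraries lay nearest to the pair of subunits with the widest changes were found by the distance between centred log2 values, over all tested genes. Nearest to Itgax were App, the amyloid precursor protein (distance 0.049, log2 change -1.37), Csf2ra, the alpha chain of the GM-CSF receptor (0.069, -1.47), and Plet1, a surface protein (0.080, -1.45), which passed the filter through WT alone. Nearest to Itgb7 were Car2, a carbonic anhydrase (0.033, 1.04), Itgb5 (0.075, 0.99) and Cdh17, a cadherin (0.077, 1.08). With 4 libraries the measure mostly reflects a like difference between the groups.

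Talin and kindlin-3 transcripts, whose proteins switch integrins on from inside the cell, did not pass the test. Of 37 activation and adaptor genes, 30 passed the filter, 5 rose and 4 fell, 30% beside 30.5% of all tested genes, and the median change was -0.01. Tln1 (talin) and Fermt3 (kindlin-3), which bind beta tails to activate them, were both abundant. Tln1 had 255 and 262 TPM in the knockout-labelled libraries and 255 and 252 TPM in WT (0.03, 95% interval -0.053 to 0.11, adjusted p = 0.566). Fermt3 had 241 and 247 TPM in the knockout-labelled libraries and 254 and 255 TPM in WT (-0.06, 95% interval -0.14 to 0.02, adjusted p = 0.185). Actn1, an actin cross-linker at adhesions, had 118 and 126 TPM in the knockout-labelled libraries and 164 and 172 TPM in WT, and fell by 0.46 (adjusted p = 0.00235). Fblim1, a filamin-binding adaptor, also fell (-0.47, adjusted p = 0.00781). Parvg and Parvb, parvins of the complex with integrin-linked kinase, rose by 0.29 and 0.44 (adjusted p = 0.00421 and 0.00562). The adaptor Fyb (ADAP) rose by 0.36 (adjusted p = 0.00636), but not without replicate 2 of the knockout-labelled group (adjusted p = 0.0594). Vinculin (Vcl) rose by 0.21 (adjusted p = 0.0163), but this was lost when library 1 (adjusted p = 0.0905) or library 2 (adjusted p = 0.115) of that group was left out. With spike-in scaling Parvg (0.18, adjusted p = 0.155) and Vcl (0.10, adjusted p = 0.388) did not pass. The 9 calls of the list were 5 without knockout-labelled library 1 and 4 without knockout-labelled library 2. Kank2 was also called higher but passed the filter through the knockout-labelled libraries alone (1.48 and 1.45 TPM, against 0.54 and 0.64 TPM in WT).

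Of 27 kinases and exchange factors that act next to integrins, 25 passed the filter, 5 rose and 5 fell (40%), with a median change of 0.05. Beside this, 30.5% of all tested genes were called, 18.9% higher and 11.6% lower, with a median change of 0.04. Fgr, a Src-family kinase of beta2 integrin signalling, had 46.8 and 46.3 TPM in the knockout-labelled libraries and 68.2 and 71.0 TPM in WT, and fell by 0.57 (SE 0.040, adjusted p = 0.000720). Syk, the kinase recruited downstream, fell by 0.23 (adjusted p = 0.00919). The phosphoinositide 3-kinase catalytic genes Pik3cg and Pik3cd rose by 0.27 and 0.24 (adjusted p = 0.00354 and 0.00694), and the phospholipase Plcg2 by 0.21 (adjusted p = 0.00900). With spike-in scaling 0 of the list rose and 4 fell, so the rises were not kept under that scaling. The unequal spike-in shares of the WT libraries enter it. Leaving out either knockout-labelled library left 2 calls in the list, and leaving out WT library 1 left 6. Syk, Pik3cd and Plcg2 were lost without either knockout-labelled library (adjusted p from 0.0532 to 0.0916). Ptk2 (focal adhesion kinase) was called lower, but it passed the filter through WT alone (0.70 and 0.64 TPM in the knockout-labelled libraries, against 1.37 and 1.51 TPM in WT).

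Of 35 ligands of integrins, 17 passed the filter, 3 rose and 7 fell (58.8%), with a median change of 0.0049. Among all tested genes 30.5% were called, 18.9% higher and 11.6% lower, and the median change was 0.04. Complement C3, whose fragment iC3b binds Mac-1, had 254 and 258 TPM in the knockout-labelled libraries and 580 and 606 TPM in WT, and fell by 1.21 (SE 0.035, adjusted p = 7.54e-05). Cdh1, E-cadherin, a ligand of the Itgae and Itgb7 heterodimer, had 12.6 and 12.2 TPM in the knockout-labelled libraries and 39.0 and 40.3 TPM in WT, and fell by 1.60 (SE 0.048, adjusted p = 7.67e-05). Fn1, fibronectin, which binds Itga4 and Itga5 with Itgb1, had 6.57 and 6.64 TPM in the knockout-labelled libraries and 19.95 and 20.11 TPM in WT (-1.47, SE 0.055, adjusted p = 0.000134). Icam1, the ligand of LFA-1 and Mac-1, had 19.9 and 21.0 TPM in the knockout-labelled libraries and 27.0 and 28.1 TPM in WT (-0.41, SE 0.051, adjusted p = 0.00424). Vwf fell by 0.66 (adjusted p = 0.00352). Thy1, which binds Mac-1 and beta3 integrins, had 142 and 142 TPM in the knockout-labelled libraries and 80.8 and 82.0 TPM in WT, and rose by 0.79 (SE 0.032, adjusted p = 0.000165). Leaving out knockout-labelled library 2 left 6 calls in the list. The addressins of the Itga4 heterodimers were hardly detected in these cells, with Vcam1 at or below 0.02 TPM and Madcam1 at or below 0.06 TPM in every library.

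**Figure D5:**
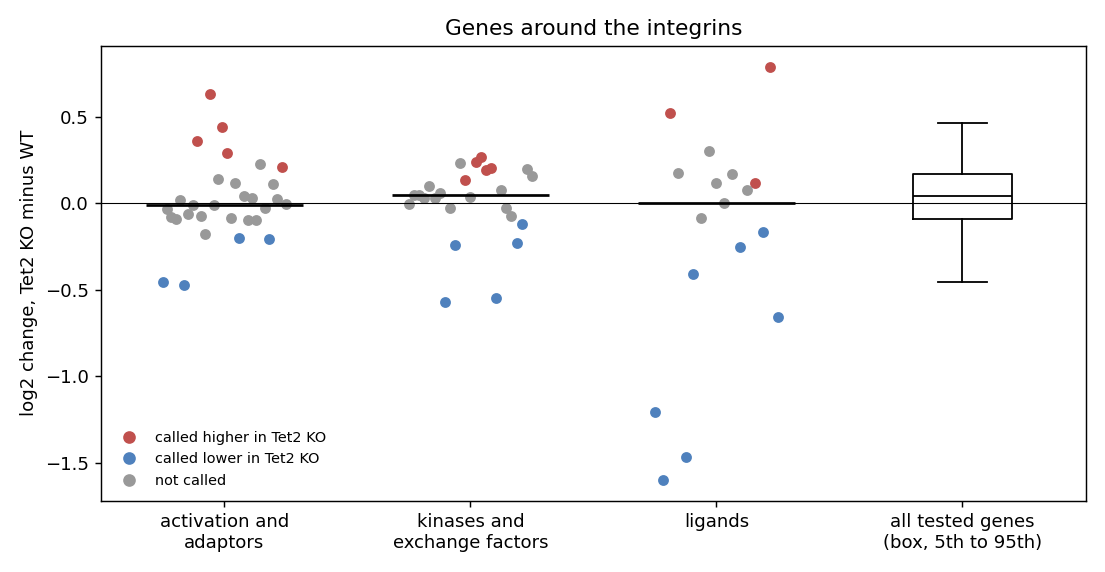
Changes on the log2(TPM + 1) scale, knockout-labelled minus WT, of the tested genes in 3 lists around the integrins, with a line at each list's median, beside a box of all tested genes whose whiskers run from the 5th to the 95th percentile. The ligands range from -1.60 for Cdh1 to 0.79 for Thy1, and the other lists stay between -0.57 and 0.63.

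Granulocyte maturation genes were lower in the knockout-labelled libraries, as were Itgam, Itgb2 and Itgax but not Itgal. Of 35 granulocyte maturation genes, all passed the filter, 31 fell and 2 rose, and their summed TPM was 60925 to 61333 in the knockout-labelled libraries, against 101770 to 104123 in WT. The part of this shift in the falls of Itgam, Itgb2 and Itgax was not tested. Of 16 monocyte, macrophage and dendritic markers, 11 passed, 3 rose and 4 fell, and they summed to 2633 to 2658 TPM in the knockout-labelled libraries, against 3212 to 3342 TPM in WT. Most of that sum was Ly6c2, with 1583 and 1572 TPM in the knockout-labelled libraries and 2028 and 2122 TPM in WT. Ccr2, among the 3 that rose, had 278 and 279 TPM in the knockout-labelled libraries and 138.5 and 152 TPM in WT. In that list Mrc1 had 50.1 and 47.6 TPM in the knockout-labelled libraries and 211 and 208 TPM in WT. Adgre1, the macrophage antigen F4/80, had 385 and 379 TPM in the knockout-labelled libraries and 330 and 328 TPM in WT. The dendritic markers Flt3, Zbtb46, Xcr1, Siglech and Cd209a stayed below 1 TPM in all libraries. The part of these markers in the fall of Itgax was not tested. Leukocyte and myeloid progenitor genes, Ptprc, Spi1, Mpo, Kit, Cebpa, Cd33, Elane, Prtn3 and Ctsg, all passed the filter, 4 rose and 3 fell, and they summed to 5104 to 5132 TPM in the knockout-labelled libraries, against 5094 to 5288 TPM in WT. The largest part of that sum was Ctsg, which did not pass the test. The similar sums hide opposite changes, such as a fall of 1.28 for Elane and rises of 0.44 for Mpo and 0.59 for Kit on the log2 scale.

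Markers of other lineages bear on Itgb7, Itgb3 and Itga2b, which lymphocytes, mast cells and platelets also express. The 7 T and NK cell markers measured summed to at most 0.33 TPM in any library, with Cd3e and Ncr1 at 0. Of 5 B cell markers Cd79b alone reached 1 TPM, with 4.37 and 4.58 TPM in the knockout-labelled libraries and 2.60 and 2.49 TPM in WT, and Ms4a1 was at 0. The 10 mast cell and basophil markers summed to 2079 to 2145 TPM in the knockout-labelled libraries, against 1965 to 2042 TPM in WT. Most of that sum was Cpa3, a mast cell protease, which had 1667 and 1606 TPM in the knockout-labelled libraries and 1302 and 1366 TPM in WT and was the 1 of the 8 tested markers that rose. The median change of the 8 was -1.09, opposite in direction to the sum, and 5 fell, among them the mast cell protease Tpsb2, with 25.7 and 25.3 TPM in the knockout-labelled libraries and 77.9 and 84.9 TPM in WT. Another of the 5, Tpsab1, passed the filter through WT alone, so its call is not independent of the filter, and Mrgprb2 was at 0. The 8 megakaryocyte and platelet markers summed to 107 to 116 TPM in the knockout-labelled libraries, against 138 to 139 TPM in WT, with Gp6 at 0. Of the 4 tested, Ppbp fell and 3 did not pass the test. Ppbp had 32.7 and 34.5 TPM in the knockout-labelled libraries and 64.1 and 70.5 TPM in WT. Pf4 overlapped, with 77.9 and 67.8 TPM in the knockout-labelled libraries and 70.0 and 62.9 TPM in WT. The 8 eosinophil markers summed to 47.9 to 49.2 TPM in the knockout-labelled libraries, against 47.4 to 52.9 TPM in WT, mostly from Siglecf, and of 3 tested 1 rose and 2 fell. Those that fell, Prg2 and Ear2, met the filter through WT, so their calls are not independent of it. The 8 erythroid markers summed to 211 to 234 TPM in the knockout-labelled libraries, against 136 to 142 TPM in WT, mostly from Hbb-bt, with Hbb-bs at 0, and of 2 tested 1 rose. The 8 stromal and endothelial markers summed to 343 to 344 TPM in the knockout-labelled libraries, against 424 to 436 TPM in WT, nearly all of it Pecam1, which myeloid cells also express. Of the 3 tested, 1 rose and 1 fell. The part of these lineages in the integrin values was not tested.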

How the data were processed

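Messenger RNA of 4 libraries was prepared with a KAPA stranded kit, per the labels' protocols. The deposited values were used as TPM, since each of the 4 columns sums to 1000000, and the authors made them with STAR and RSEM on mm10, per the submitters' processing notes. Versions, annotation and strand setting are not given in the sources used here. Cytokines in the medium were 50 ng/ml of SCF and 10 ng/ml each of IL-6 and IL-3, with 2 µg/ml of puromycin and 1 mg/ml of G418 as selection, per the labels. The 92 ERCC entries were left out of tests.

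The 11837 genes that reached 1 TPM in 2 or more libraries were compared as log2(TPM + 1) with limma 3.58.1 (R 4.3.3), with a variance trend, all 4 libraries and Benjamini-Hochberg adjustment over all tested genes. Changes are knockout-labelled minus WT and understate those of low genes. The fit had 2 residual degrees of freedom and a prior of 3.51, and since separate cultures are not stated, its p-values reflect spread among libraries that could be technical. SE is the moderated standard error. In simulated data with known changes, false calls took more than their nominal share, so calls near the threshold are the less certain ones. Ratios were compared by exact permutation.

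The 10 subunits and the lists were chosen with earlier results of these data known. Named by rule were all 10, every other tested subunit, up to 6 genes per list with the smallest p, Tet2, and the 3 genes nearest to each of the 2 most changed subunits. Some genes under this rule are not reported here. Tln1, Fermt3, Kank2, Ptk2, Itgb2l, markers and genes near 0 were named after their values were seen. Gene positions are from GENCODE on GRCm38, and promoter windows from RefSeq (GRCm38.p6). Alternatives covered scaling, filters, pseudocounts, the variance model, thresholds, a replicate block and leaving out each library.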

Additional observations from a re-analysis of the deposited data

How the results depend on the processing

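Itgb7 and Itgax were called in the same direction under all 19 other settings. Itga4, Itgam and Itgb2 lost their calls under a minimum log2 change of 1 alone, Itgal also with spike-in scaling, Itgb3 under 4 settings and Itga6 under 11. None of these 8 reversed. The uncalled Itga5 turned to 0.0043 after removal of a GC and length trend, and ranged over -0.040 to 0.0037 with 1 library left out. The uncalled Itgb1 turned to -0.012 with spike-in scaling. The Itga6 to Itgb1 log2 difference ranged over -0.022 to 0.069 with 1 library left out. Of the 10 subunits, 3 to 4 rose and 3 to 4 fell when a library was left out, 2 rose with spike-in scaling, and 1 rose and 1 fell at a minimum log2 change of 1.

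There were 2237 genes called higher and 1369 genes called lower. At an adjusted p under 0.01 these were 839 and 666, at a minimum log2 change of 1 they were 66 and 165, and without a library 628 to 2190 and 602 to 1065. Spike-in scaling gave 631 and 1477, and moved the median of all genes by -0.11 to -0.07, relative to which Itgal was 0.26, Itga6 0.08 and Itgb1 0.06. After rescaling without the granulocyte genes 1418 rose and 1936 fell. 

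At a minimum log2 change of 1, the other subunits had 1 call, the adaptors 0, the kinases 0 and the ligands 3. The adaptors had 9 calls, 5 at an adjusted p under 0.01, 14 without the granulocyte genes and 4 to 12 without a library. The kinases had 10, 5 at an adjusted p under 0.01, 6 without the GC and length trend, 4 with spike-in scaling and 2 to 7 without a library. The ligands had 10, and 6 to 10 without a library. The adjusted p under 0.01 and the minimum change are stricter by construction. Leaving out a library gives a smaller data set, which did not lower every count. The cause of the other shifts was not tested.

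With the replicate number as a block, 3 of the 10 subunits rose and 4 fell (1888 and 1183 over all genes). Itga6 lost its call (adjusted p = 0.0655), and the other 9 subunits kept theirs or stayed uncalled. The deviations of same-numbered libraries correlated at -0.11. With 2 libraries per group this cannot show whether the numbers mark a pairing, and the labels give a replicate number only. With the numbers crossed, a setting chosen after seeing the data, 3 rose and 4 fell (2136 and 1327 over all genes). Without read depth no counting interval can be given.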
